A study of Mus musculus with 6 samples.

Results

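De novo lipogenesis turns carbohydrate carbon into fatty acids, and triglyceride synthesis joins those fatty acids to glycerol. The genes described here are 35 regulators, enzymes and carriers of these pathways in mouse liver. They were chosen by name from the deposited table of counts per gene. Of the 35, 34 have an entry among the 41096 annotated ones: 33 under their own symbol, and Acaca through the description of a protein-coding entry that carries an identifier in place of a symbol. Gpat3 has no entry under its symbol and is treated separately. After the filter on low counts 33 were tested, and Pnpla3 was not.

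Polyadenylated RNA was sequenced from liver tissue of mice exposed to DEHP (3 libraries) and of mice not exposed (control, 3 libraries). DEHP, di(2-ethylhexyl) phthalate, is a plasticizer, and the title of the series concerns lipid metabolism, autophagy and mitochondria. The exposed columns carry the word High. No dose, duration, strain, sex or age is given in the labels, and none says whether each library is a different animal. The p-values therefore describe spread among samples that may be technical. Total counts lay between 10410098 and 12405044 in DEHP libraries and between 12001969 and 14229803 in control libraries (two-sided exact permutation test, p = 0.2, and 0.1 is the least that 3 against 3 can give). Alb, the albumin gene, is a marker of hepatocytes. It had 64373 to 93621 CPM (counts scaled by library size) in DEHP livers and 75121 to 108084 CPM in control livers. Among the 7 hepatocyte markers tested, Alb included, 6 had negative log2 fold changes (DEHP over control) and 1, Cps1, a positive one. They ran from -0.69 for Apoa1 to 0.73 for Cps1, with a median of -0.19, and the groups overlapped for each. Whether the share of hepatocytes differed was not tested. The control libraries stood apart from each other: 9 interferon-stimulated genes summed to 269.9 to 350.1 CPM in DEHP livers, against 3266, 2389 and 319 CPM in control replicates 1, 2 and 3. Results that rest on control replicates 1 and 2, or on control replicate 3, are therefore given with and without them.

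In liver, acetyl-CoA for lipogenesis comes from citrate exported by the mitochondrion, and NADPH from the pentose phosphate pathway and malic enzyme. Acetyl-CoA carboxylase makes malonyl-CoA, fatty acid synthase builds palmitate from it, and elongases and desaturases modify the product. Glycerol-3-phosphate acyltransferases, acylglycerolphosphate acyltransferases, lipins and diacylglycerol acyltransferases then assemble triglyceride in sequence. SREBP-1c, encoded by Srebf1, switches the pathway on in response to insulin, and ChREBP, encoded by Mlxipl, in response to sugar.

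With 3 libraries a group, no change of the pathway passed the test. Of 33 members tested, 0 passed an adjusted p of 0.05 (edgeR quasi-likelihood test, Benjamini-Hochberg adjustment over 12468 genes), where 0.0722% of all genes did (0.0561% as higher and 0.016% as lower in DEHP livers). At an unadjusted p of 0.05 there were 4 members, against 13.1% of all genes (6.11% higher, 6.97% lower). Limma-voom called 0 members, with 4 at an unadjusted p of 0.05, and DESeq2 called 1, with 4, where DESeq2 called 2.09% of all genes. Mogat1 and Acacb were the 2 with higher values in DEHP livers, and Khk and Tkfc the 2 with lower values. The groups did not overlap for 4 tested members (Mogat1, Acacb and Me1 with higher values in DEHP livers, Khk with lower), against 17.7% of all genes (9.17% higher, 8.57% lower). Both counts lie near the background, so they are no result about the pathway. The median log2 fold change (DEHP over control) was 0.08 over the 33 members and -0.03 over all genes tested, with 19 members positive and 14 negative.

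**Figure D1:**
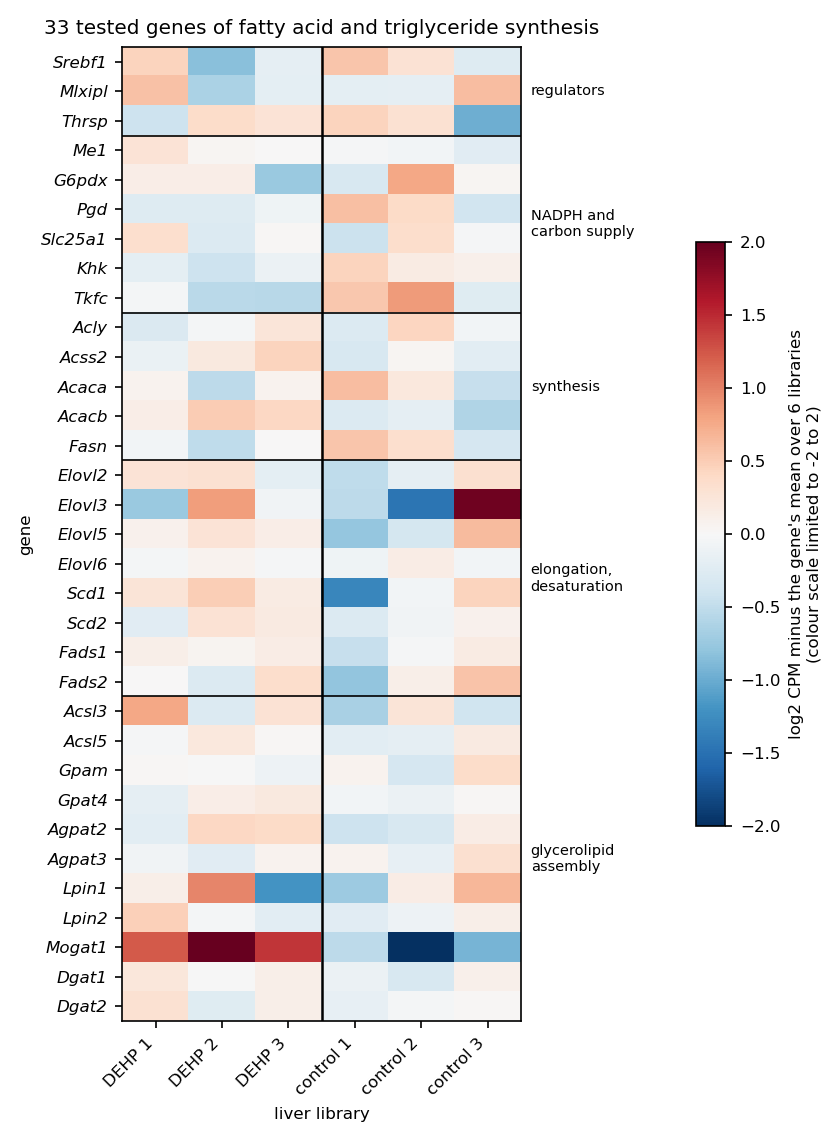
Each cell gives log2 CPM of a tested gene in a liver library minus that gene's mean over the 6 libraries, with genes in rows by step of the pathway, DEHP libraries left of the line and control libraries right of it. Mogat1 is higher in the 3 DEHP libraries, while for the elongases and desaturases control replicate 1 is mostly the lowest of the controls and control replicate 3 the highest.

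Mogat1 encodes monoacylglycerol acyltransferase 1, which makes diacylglycerol from monoacylglycerol and so feeds triglyceride synthesis outside the glycerol phosphate route. Its entry held 37, 79 and 51 counts in DEHP replicates 1 to 3, against 14, 0 and 8 counts in control replicates 1 to 3. This corresponds to 3.75, 6.89 and 4.33 CPM in DEHP livers, and to 0.992, 0 and 0.709 CPM in control livers. All 3 DEHP libraries lay above all 3 controls, at a mean of 4.99 ± 1.67 CPM in DEHP livers and 0.567 ± 0.511 CPM in control livers (SD, n = 3 each). The log2 fold change was 3.10 ± 0.75 (SE, adjusted p = 0.166), the largest among the members. Mogat1 passed the low-count filter only through its DEHP libraries, so its presence among the tested genes is itself tied to that difference. It passed with DESeq2 (3.15, adjusted p = 0.00109), when 2.09% of all genes passed, and did not with limma-voom (3.96, adjusted p = 0.197). With edgeR and low counts kept it passed (3.14, adjusted p = 5.03e-05), when 2.41% of all genes passed. In that fit the SE was 0.22 for each of Scd1, Thrsp and Me1, against 0.37, 0.35 and 0.18 with the filter. Those SEs thus followed each gene's own spread less, although Elovl3 and Lpin1 kept wide ones (1.13 and 0.72). With 1 library left out the fold change of Mogat1 ran from 2.53 to 3.83, with adjusted p from 0.0524 to 0.601. Without control replicates 1 and 2 together it was 2.81.

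Acacb encodes acetyl-CoA carboxylase 2, whose malonyl-CoA at the mitochondrial surface restrains fatty acid entry for oxidation. It had 29.4, 38.1 and 35.5 CPM in DEHP replicates 1 to 3, against 22.0, 23.5 and 17.5 CPM in control replicates 1 to 3. The DEHP libraries all lay above the controls, and the log2 fold change of 0.71 ± 0.21 did not pass (SE, adjusted p = 0.207). Leaving out any 1 library gave 0.62 to 0.83.

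Tkfc encodes triokinase, which phosphorylates the glyceraldehyde formed from fructose. It had 376, 267 and 264 CPM in DEHP replicates 1 to 3, against 563, 703 and 327 CPM in control replicates 1 to 3. Control replicate 3 lay inside the range of the DEHP libraries, and the other controls lay above all of them. The log2 fold change was -0.81 ± 0.27 (SE, adjusted p = 0.252). Without control replicate 3 Tkfc passed as lower (-1.05, adjusted p = 0.0161), when 3.10% of all genes passed. Without control replicates 1 and 2 its value was -0.10 (adjusted p = 1.00). With low counts kept it passed at -0.78 (adjusted p = 0.0175), when 2.41% of all genes passed. Its SE was 0.22 in that fit, against 0.27 with the filter.

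Khk encodes ketohexokinase, which phosphorylates fructose at the entry to this branch. It had 429, 369 and 452 CPM in DEHP livers, against 668, 549 and 527 CPM in control livers. All DEHP libraries lay below all controls, at 417 ± 43.1 CPM in DEHP livers and 581 ± 75.6 CPM in control livers (SD, n = 3 each), and the log2 fold change of -0.48 ± 0.19 did not pass (adjusted p = 0.329). The Khk value was -0.48 without DEHP replicate 1, -0.39 without DEHP replicate 2 and -0.54 without DEHP replicate 3. By the gene coordinates of the count table, from an annotation of strain C57BL/6NJ, Mogat1 spans chromosome 1 from 82287887 to 82319228, Acacb chromosome 5 from 121379446 to 121500298, Tkfc chromosome 19 from 8301357 to 8314567, and Khk chromosome 5 from 30658012 to 30667858. Their biotype is protein-coding.

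The 250 bases before the annotated start of these 4 genes are shown because they are the members with an unadjusted p under 0.05. The sequences are RefSeq's on GRCm38.p6, at chr1:78510810-78511059 (plus strand) for Mogat1, chr5:114165268-114165517 (plus) for Acacb, chr19:10604259-10604508 (minus) for Tkfc and chr5:30921309-30921558 (plus) for Khk, each 5′ to 3′ along the gene. This is not the coordinate system of the count table. Capitals mark matches on either strand to 5 short motifs: CCAAT, bound by NF-Y; CACGTG, the E-box; GGGCGG, the GC box; AGGTCA, an element of nuclear receptors; and TCACNCC, a core of the sterol regulatory element bound by SREBPs.
Mogat1: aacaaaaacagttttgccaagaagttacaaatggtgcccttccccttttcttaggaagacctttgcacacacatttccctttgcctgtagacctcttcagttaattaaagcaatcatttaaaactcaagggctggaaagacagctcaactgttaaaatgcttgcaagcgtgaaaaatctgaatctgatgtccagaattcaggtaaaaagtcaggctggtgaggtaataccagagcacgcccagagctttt
Acacb: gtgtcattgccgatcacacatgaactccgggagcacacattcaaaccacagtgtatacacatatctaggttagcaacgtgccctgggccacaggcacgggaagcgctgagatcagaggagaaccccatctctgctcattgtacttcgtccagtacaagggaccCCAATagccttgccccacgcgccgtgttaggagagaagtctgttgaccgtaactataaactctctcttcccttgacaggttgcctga
Tkfc: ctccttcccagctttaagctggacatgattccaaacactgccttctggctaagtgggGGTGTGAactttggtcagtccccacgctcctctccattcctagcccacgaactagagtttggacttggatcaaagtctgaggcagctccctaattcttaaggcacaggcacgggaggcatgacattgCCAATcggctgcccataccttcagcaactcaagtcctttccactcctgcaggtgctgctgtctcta
Khk: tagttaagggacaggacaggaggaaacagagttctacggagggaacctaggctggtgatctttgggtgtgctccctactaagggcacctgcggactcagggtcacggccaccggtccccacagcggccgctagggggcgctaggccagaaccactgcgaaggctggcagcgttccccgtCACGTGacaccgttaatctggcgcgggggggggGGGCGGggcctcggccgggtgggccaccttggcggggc
The Mogat1 window held none of these letters. Acacb held 1 CCAAT box, Tkfc 1 CCAAT box and 1 TCACNCC on the minus strand of the window, and Khk 1 E-box and 1 GC box, none overlapping another. Over the 27 members with a promoter in the reference, taking the most upstream start of each gene, CCAAT was found in 14 (51.9%), against 34.5% of 27025 promoters of the same length. The E-box was found in 5 (18.5%, against 6.04% of all promoters), the GC box in 14 (51.9%, against 32.96%), AGGTCA in 3 (11.1%, against 13.8%) and TCACNCC in 2 (7.41%, against 13.3%). These are matches of letters, and no binding was measured.

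**Figure D2:**
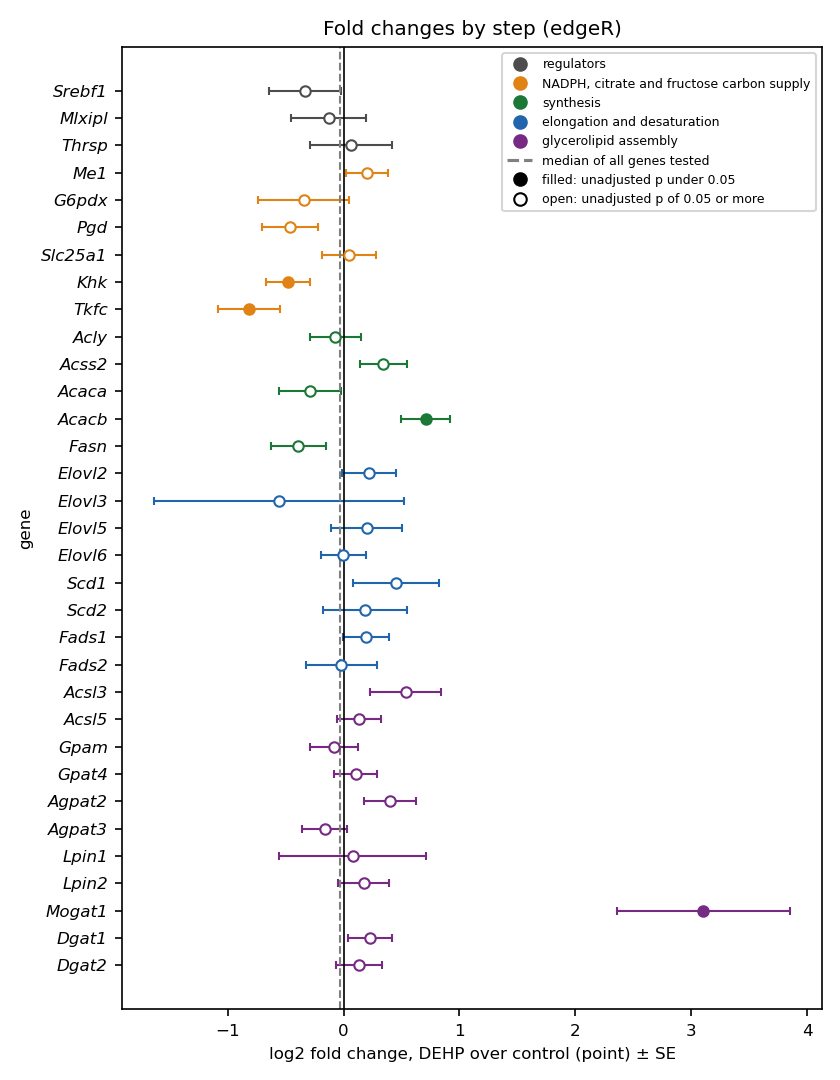
Points give the log2 fold change of DEHP over control livers for each tested gene, bars its SE, colours the step, and filled points an unadjusted p under 0.05. The 4 filled points are Khk, Tkfc, Acacb and Mogat1, and the dashed line is the median of all genes tested, -0.03.

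Among the regulators, 0 of 3 reached an unadjusted p of 0.05 and the groups overlapped for each. Srebf1 had 184, 75.7 and 119 CPM in DEHP replicates 1 to 3, against 199, 165 and 114 CPM in control replicates 1 to 3 (log2 fold change -0.33 ± 0.31 SE, adjusted p = 0.697). Its lowest value was in DEHP replicate 2 and its highest in control replicate 1, and Rai1 on the opposite strand, which overlaps it, held 1094 counts against 10275. The Srebf1 value was -0.69 without DEHP replicate 1 (adjusted p = 0.275), -0.0565 without DEHP replicate 2, -0.14 when control replicate 1 was left out, -0.51 when control replicate 3 was, and 0.16 without control replicates 1 and 2. Mlxipl had 289.8, 125 and 170.2 CPM in DEHP livers, against 169.7, 171 and 298 CPM in control livers (-0.13 ± 0.32, adjusted p = 0.909). Its highest value was in control replicate 3 and its lowest in DEHP replicate 2. Thrsp, Spot 14, a small protein that promotes lipogenesis, had 93.3, 160.3 and 150.1 CPM in DEHP livers, against 170.2, 153 and 63.4 CPM in control livers (0.06 ± 0.35, adjusted p = 0.961). Its lowest value was in control replicate 3.

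The supply of NADPH, citrate and fructose carbon had a median log2 fold change of -0.40 over 6 members, and 0 passed over all genes. Khk and Tkfc, given above, were its 2 members at an unadjusted p of 0.05. Leaving out control replicate 2 gave a step median of -0.18, and leaving out control replicates 1 and 2 gave -0.01. Me1, the cytosolic malic enzyme, was 103, 87.8 and 85.9 CPM in DEHP livers, against 84.6, 82.5 and 73.5 CPM in control livers. The groups did not overlap, with a difference of 0.20 ± 0.18 on the log2 scale that did not pass (SE, adjusted p = 0.681). In the pentose phosphate pathway, Pgd, the phosphogluconate dehydrogenase gene, had 25.6 to 28.9 CPM in DEHP livers and 46.6, 40.1 and 23.6 CPM in control replicates 1 to 3 (-0.46 ± 0.24, adjusted p = 0.434). G6pdx, glucose-6-phosphate dehydrogenase, stood at 3.14 to 5.93 CPM in DEHP livers and 4.25 to 9.25 CPM in control livers. The G6pdx entry overlaps Ikbkg on the opposite strand, which held 5697 counts against 402 for G6pdx over the 6 libraries, and the sources used here do not say whether strand entered the counting. Slc25a1, the mitochondrial citrate carrier, had a log2 fold change of 0.05 ± 0.23.

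For the synthesis of fatty acids from acetyl-CoA, 5 members were tested and Acacb alone reached an unadjusted p of 0.05. Fasn, fatty acid synthase, had 180.1, 131 and 188 CPM in DEHP replicates 1 to 3, against 273, 235 and 148 CPM in control replicates 1 to 3 (log2 fold change -0.39 ± 0.24 SE, adjusted p = 0.507). Control replicates 1 and 2 lay above all DEHP libraries, and control replicate 3 among them. Its value was -0.59 without control replicate 3 and 0.18 without control replicates 1 and 2, so its sign rests on those 2 libraries. Acaca, acetyl-CoA carboxylase 1, the cytosolic form that feeds fatty acid synthase, had 51.9, 34.5 and 51.9 CPM in DEHP livers, against 75.9, 57.4 and 35.7 CPM in control livers (-0.29 ± 0.27, adjusted p = 0.690). It followed the order of Fasn among the controls, with control replicate 3 inside the DEHP range. The Acaca value was -0.11 without DEHP replicate 2, -0.0144 when control replicate 1 was left out, -0.51 without control replicate 3 (adjusted p = 0.307) and 0.38 without control replicates 1 and 2. Acly, ATP citrate lyase, and Acss2, acetyl-CoA synthetase, the enzymes that supply cytosolic acetyl-CoA, had log2 fold changes of -0.07 ± 0.22 and 0.34 ± 0.20. Acss2 overlaps Gss on the opposite strand, an entry of 6746 counts against 5616, so its value is uncertain for the same reason as that of G6pdx.

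**Figure D3:**
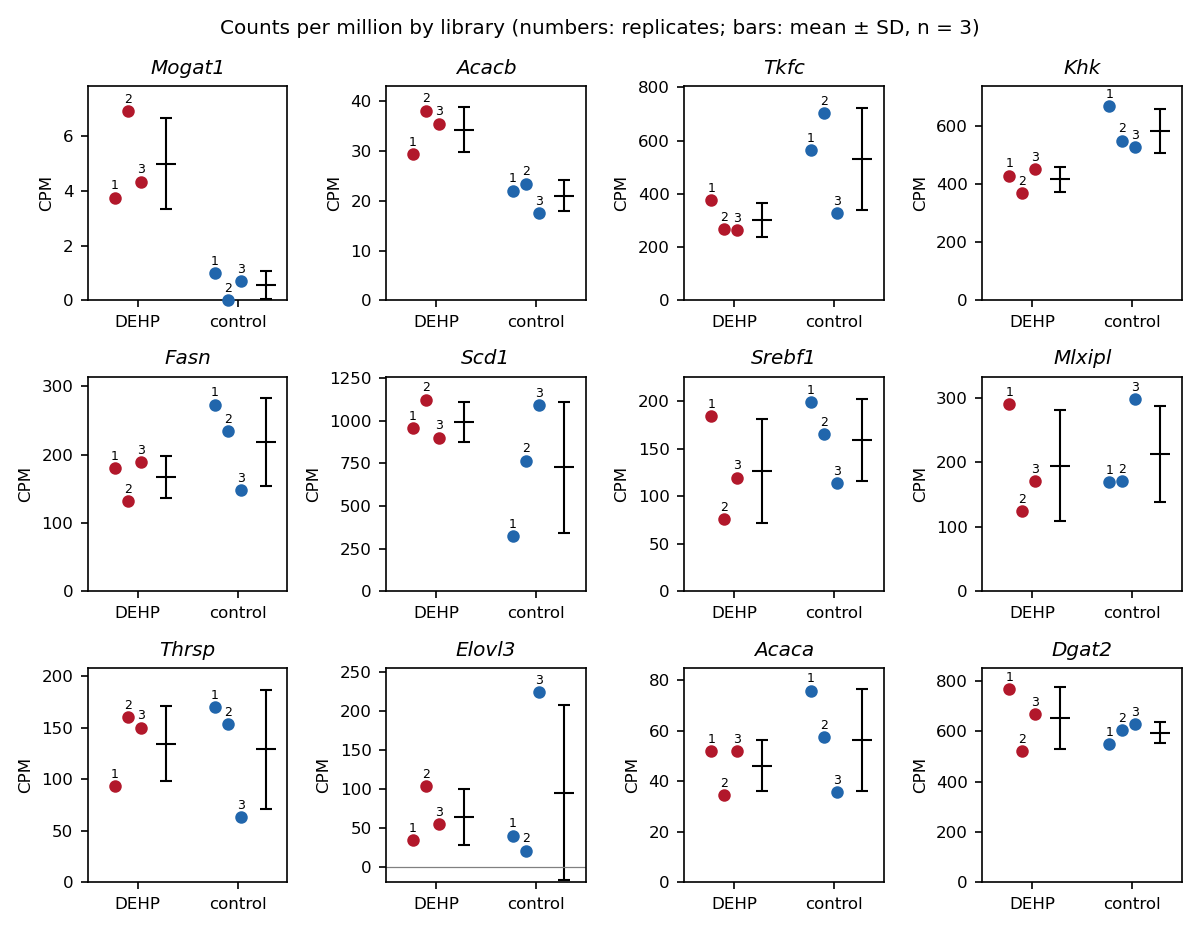
CPM of 12 genes on linear axes, DEHP libraries left and control libraries right, with points numbered by replicate and bars for the mean ± SD (n = 3). The groups are apart for Mogat1, Acacb and Khk, and for Tkfc, Fasn, Srebf1, Thrsp and Acaca control replicate 3 is the lowest of the controls.

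Elongation and desaturation had a median log2 fold change of 0.19 over 8 members, with 0 at an unadjusted p of 0.05 and no member whose groups were apart. This median was -0.0042 when control replicate 1 was left out, 0.43 when control replicate 3 was, and -0.15 without control replicates 1 and 2. Scd1, stearoyl-CoA desaturase 1, the most abundant member in CPM, had 957, 1124 and 901 CPM in DEHP replicates 1 to 3, against 322, 767 and 1090.3 CPM in control replicates 1 to 3 (0.45 ± 0.37 SE, adjusted p = 0.657). The 3 DEHP libraries lay close together, while the controls spread over a 3.38-fold range, with control replicates 1 and 2 below the DEHP libraries and control replicate 3 among them. Its value was 0.10 without control replicate 1, 0.89 without control replicate 3 and -0.12 without control replicates 1 and 2. Elovl2, an elongase of polyunsaturated fatty acids, had 418, 428 and 302 CPM in DEHP livers, against 243, 307 and 436 CPM in control livers (0.22 ± 0.24, adjusted p = 0.734). Fads1, the delta-5 desaturase, had 327, 316 and 335 CPM in DEHP livers, against 219, 297 and 339.6 CPM in control livers (0.19 ± 0.20, adjusted p = 0.728). For both genes control replicate 1 was the lowest and control replicate 3 the highest of the 6 libraries. Elovl3, an elongase of saturated and monounsaturated very long chains, varied most among the controls, at 40.2, 20.9 and 224 CPM, against 34.6, 104 and 55.0 CPM in DEHP livers. Its log2 fold change of -0.55 ± 1.079 became 1.10 without control replicate 3, so its sign rests on that library. Elovl6, which lengthens palmitate, was 27.5 to 29.5 CPM in DEHP livers and 26.6 to 31.1 CPM in control livers (-0.00 ± 0.19). Elovl5, which acts on polyunsaturated chains, had 143, 163 and 148 CPM in DEHP livers, against 79.2, 105 and 210.4 CPM in control livers, so the controls lay on either side of the DEHP libraries. Summed over the 8 members, the step held 2050.0, 2284 and 1951 CPM in DEHP livers, against 1015, 1683 and 2538 CPM in control livers. Elovl5, Fads2, the delta-6 desaturase, and Scd2, a second stearoyl-CoA desaturase, lay at 0.20 ± 0.31, -0.02 ± 0.31 and 0.18 ± 0.37.

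For glycerolipid assembly, 11 of 12 members with an entry were tested, with a median log2 fold change of 0.13 and 9 positive. This median was 0.25 without DEHP replicate 2, 0.23 without DEHP replicate 3, 0.29 when control replicate 3 was left out, and 0.03 without control replicates 1 and 2. Mogat1 was the 1 member at an unadjusted p of 0.05. Dgat2, the diacylglycerol acyltransferase that uses newly made fatty acids, had 765, 520 and 668 CPM in DEHP replicates 1 to 3, against 549, 603 and 629 CPM in control replicates 1 to 3 (0.13 ± 0.20 SE, adjusted p = 0.823). The control values lay inside the range of the DEHP libraries. Lpin2, a lipin, which makes diacylglycerol from phosphatidate, had 621, 434 and 383 CPM in DEHP livers, against 379, 415 and 483 CPM in control livers (0.17 ± 0.22, adjusted p = 0.779). DEHP replicate 1 was the highest library and the groups overlapped. Its relative Lpin1, also a lipin, varied most within the DEHP group, at 209, 378 and 83.5 CPM, against 117, 213 and 306 CPM in control livers (0.08 ± 0.64, adjusted p = 0.972). Agpat3, an acylglycerolphosphate acyltransferase, had 268, 238 and 293 CPM in DEHP livers, against 294, 251 and 351 CPM in control livers (-0.16 ± 0.20, adjusted p = 0.767). The other tested members of this step ran from -0.09 for Gpam, the mitochondrial glycerol-3-phosphate acyltransferase, to 0.53 for Acsl3, an acyl-CoA synthetase of lipid droplets, with Agpat2 at 0.40, Dgat1 at 0.23, Acsl5 at 0.13 and Gpat4 at 0.10. Agpat2 had 175, 269 and 265 CPM in DEHP livers, against 152, 161 and 223 CPM in control livers, and its entry overlaps Egfl7 on the opposite strand, which held 2867 counts against 14640. The Acsl3 entry overlaps Utp14b on the same strand (192 counts against 1323). Pnpla3, a lipid droplet protein, held 2, 4 and 2 counts in DEHP livers against 14, 5 and 6 counts in control livers, too few to be tested. The entry described as Gpat3, a glycerol-3-phosphate acyltransferase of the endoplasmic reticulum, carries the symbol Agpat9 and is not counted among the members. It had 21.2, 20.7 and 12.9 CPM in DEHP livers, against 8.93, 9.56 and 12.9 CPM in control livers, with a log2 fold change of 0.80 ± 0.27 (edgeR, adjusted p = 0.259). DEHP replicate 3 and control replicate 3 were level, so the groups met there.

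Levels of different genes were compared per kilobase of the table's gene length. Dgat2 and Khk stood highest among the members, at 276 and 273 CPM per kilobase over the 6 libraries, followed by Scd1 at 178 and Tkfc at 152. Fasn was 22nd of the 34 members with an entry, at 17.6 CPM per kilobase, and Acaca and Acacb stood at 3.01 and 2.87. Within pairs of related enzymes, Dgat2 made up 95.3% ± 0.53 of the Dgat1 and Dgat2 counts per kilobase in DEHP livers and 95.6% ± 0.57 in control livers (SD, n = 3 each). Scd1 made up 99.6% ± 0.07 of Scd1 and Scd2 in DEHP livers and 99.4% ± 0.32 in control livers. For the acetyl-CoA carboxylases, the share of Acacb was 50.0%, 66.2% and 54.7% in DEHP replicates 1 to 3, against 33.9%, 42.0% and 46.5% in control replicates 1 to 3. All 3 DEHP libraries lay above the controls in this share, with control replicate 3 the closest. Agpat2 made up 70.0%, 80.0% and 76.3% of Agpat2 and Agpat3 in DEHP livers, against 64.8%, 69.6% and 69.4% in control livers. These groups did not overlap either, with DEHP replicate 1 just above control replicate 2. In every other pair, and for each gene of the elongase family, the shares of the groups overlapped. No share was tested, and the groups did not overlap in CPM for 17.7% of all genes. The share of Lpin1 in the Lpin1 and Lpin2 sum spread from 31.8% to 65.1% in DEHP livers and from 39.7% to 57.5% in control livers.

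**Figure D4:**
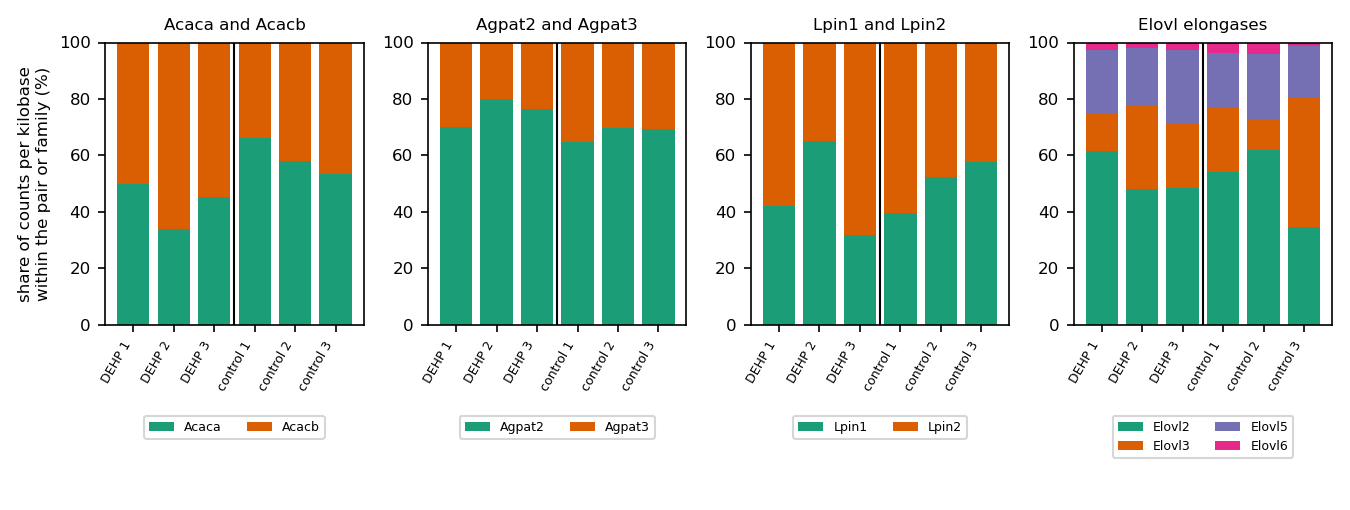
Stacked bars give each gene's share of counts per kilobase within its pair or family, from 0 to 100%, in DEHP libraries left of the line and control libraries right of it. The Acacb share is 50.0% to 66.2% in DEHP livers and 33.9% to 46.5% in control livers, and Elovl3 takes 45.8% of the elongase counts in control replicate 3.

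Spread within each group was described by the coefficient of variation, with no test. Its median was 18.9% in DEHP livers and 26.9% in control livers over the 33 members, against 20.8% and 21.5% over all genes tested. Within the controls, control replicate 1 was the lowest for 7 of 8 elongation and desaturation genes and control replicate 3 the highest for 7 of 8, Elovl3 and Elovl6 being the exceptions. For assembly, control replicate 3 was the highest of the controls for 9 of 11 members. For the supply and synthesis steps control replicate 3 was the highest of the controls for 0 of 11. Over all genes, control replicate 3 was the highest of the controls for 33.9% and control replicate 1 the lowest for 36.6%. Control replicate 3 lay inside the DEHP range for 16 of 33 members, near the 48.3% found over all genes, while control replicate 1 did so for 7 of 33, against 35.9% of all genes. Together the members with an entry took 0.661%, 0.609% and 0.623% of annotated counts in DEHP livers, against 0.562%, 0.660% and 0.682% in control livers.

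Of 53 further genes of these pathways, listed by function, 48 were tested and 0 passed over all genes (edgeR), although 10 had an unadjusted p under 0.05, 5 of them with higher and 5 with lower values in DEHP livers, against 13.1% of all genes (6.11% higher, 6.97% lower). Among those with higher values, Mpc1, a subunit of the mitochondrial pyruvate carrier, had 149, 213 and 159 CPM in DEHP livers, against 67.4, 103 and 103 CPM in control livers (log2 fold change 0.93 ± 0.22 SE, adjusted p = 0.151). All DEHP libraries lay above all controls. The others were Acsl4, an acyl-CoA synthetase (0.79 ± 0.24), Insig1, which retains SREBPs in the endoplasmic reticulum (0.54 ± 0.21), Hsd17b12, the ketoreductase of fatty acid elongation (0.53 ± 0.21), and Rpe of the pentose phosphate pathway (0.46 ± 0.21). Among those with lower values, Usf1, a factor that binds E-boxes, had 34.2, 22.7 and 32.0 CPM in DEHP livers, against 76.8, 48.1 and 38.0 CPM in control livers (-0.87 ± 0.26, adjusted p = 0.215). The other 4 were Pklr, liver pyruvate kinase (-0.85 ± 0.37), Mid1ip1, which with Thrsp acts on acetyl-CoA carboxylase (-0.70 ± 0.31), Nr1h2, which encodes the oxysterol receptor LXR beta (-0.57 ± 0.19), and Taldo1, transaldolase (-0.42 ± 0.19). Pklr stood at 33.6 to 51.7 CPM in DEHP livers and at 76.5, 114 and 35.7 CPM in control replicates 1 to 3, and Mid1ip1 likewise had its lowest control value, 29.4 CPM, in control replicate 3.

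Fat tissue also makes fatty acids, so markers of adipocytes were examined. The sum of 7 markers was 41.4, 23.0 and 50.5 CPM in DEHP livers, against 16.4, 15.6 and 24.4 CPM in control livers. Most of it came from Adrb3 (34.5, 17.6 and 20.2 CPM in DEHP livers, 12.2, 10.04 and 16.0 CPM in control livers) and Cidec. Lep was at 0 in all 6 libraries, and Adipoq was at 0 in 5 and at 2.12 CPM in DEHP replicate 3, which also held 17.2 CPM of Cfd. Plin1 held 7, 0 and 10 counts in DEHP replicates 1 to 3 and 0 in each control, and Retn held 4 counts, all in DEHP replicate 3. In bulk tissue fewer cells of a type and less RNA per cell cannot be told apart. Macrophage markers summed to 218 to 318 CPM in DEHP livers, against 701, 594 and 199 CPM in control replicates 1 to 3. The sum was thus lowest in control replicate 3 and highest in the other controls. All 8 markers had negative log2 fold changes, from -1.72 for Marco to -0.06 for Adgre1, but the order of the sum did not hold for each. Vsig4 had 30.0 CPM in DEHP replicate 2 against 27.9 CPM in control replicate 1, and C1qa was lowest in DEHP replicate 1 (33.8 CPM). The part of either cell type in the values of the members was not tested.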

How the data were processed

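Per the labels' protocols, polyadenylated RNA went into directional dUTP libraries that were read as paired ends. The authors deposited whole-number counts per gene in a single table. GRCm38.p6 is the build in the submitters' processing notes, while the gene identifiers are those of the C57BL/6NJ strain annotation. Aligner, counter and strand setting: not given in the sources used here. Columns were tied to samples by group and number in the titles. Loci without a gene name (2.73% to 4.28% of counts) stayed out of library sizes and tests.

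The test was edgeR's quasi-likelihood test (robust, two-sided, no covariates; edgeR 4.0.16, R 4.3.3) after filterByExpr (minimum count 10) and TMM scaling, with Benjamini-Hochberg adjustment over 12468 genes. Standard errors derive from the F statistic, and CPM use the TMM-scaled library sizes. The code was tested on simulated data. Alternatives were RLE scaling, other filters, DESeq2 1.42.0, limma-voom (limma 3.58.1), a non-robust fit, a replicate block, and libraries left out. Members, lists and alternatives were chosen with earlier results of these data known. Members were given per library when they had an unadjusted p under 0.05, groups that do not overlap, 1 of the 8 highest mean CPM, or a set role as regulator or rate-limiting enzyme. Elovl3, Lpin1, Pgd and Adrb3 were added after their values were seen, and Elovl5 and Agpat2 are also given per library outside these rules. A result on 1 further gene is not reported here. No library was a copy of another: within groups, chi-square over its degrees of freedom was 30.6 or more.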

Additional observations from a re-analysis of the deposited data

How the results depend on the processing

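Of the member fold changes under other settings, 410 kept their sign and their side of the threshold, 48 changed sign and 4 passed the threshold. Genes called numbered 9 with all libraries, 496 with no low-count filter and 261 with DESeq2, and ran from 5 to 400 with 1 library left out, the highest without control replicate 3. Without control replicates 1 and 2 there were 0 (edgeR, 642 at an unadjusted p of 0.05). Members called numbered 2 with no filter (Tkfc lower, Mogat1 higher), 1 with DESeq2 (Mogat1 higher), and 0 to 1 with 1 library left out (Tkfc lower, without control replicate 3). Members at an unadjusted p of 0.05 numbered 7 of 34 with no filter, against 10.7% of all genes. With 1 library left out they ran from 3 of 33 without control replicate 1 (7.42% of all genes) to 11 of 33 without control replicate 3 (16% of all genes). With all libraries they were 4 of 33 (13.1% of all genes), and 5 when the Gpat3 entry was counted, an alternative added after seeing the data. With 1 library left out the median over members lay between -0.014 and 0.21 (control replicates 1 and 3 left out, in that order). The cause of these changes was not tested.

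With all libraries kept, other settings changed the sign of values near 0, and of Elovl3 (-0.55 in the main fit). With libraries left out, signs also changed for values further from 0, such as Pgd (-0.46 in the main fit), Scd1 (0.45) and Fasn (-0.39). Elovl6 was 0.0139 with RLE scaling, 0.0141 with a mean of at least 1 CPM, 0.0140 with DESeq2, 0.0285 with no filter, 0.0023 with limma-voom and 9.29e-04 with the replicate block. Fads2 was 0.0063 with no filter, 0.0610 with limma-voom and 0.0566 with the block. Lpin1 was -0.0671 with limma-voom and -0.0070 with the block, and Elovl3 0.0373 with limma-voom. With 1 library left out, log2 fold changes ran from -0.13 to 0.26 for Slc25a1, -0.22 to 0.16 for Acly, -0.0439 to 0.0755 for Elovl6, -0.31 to 0.34 for Fads2, -0.0358 to 0.31 for Lpin2, -0.51 to 0.21 for Mlxipl, -0.24 to 0.31 for Thrsp, -0.52 to 0.47 for Lpin1, -0.0610 to 0.735 for Elovl5, -0.57 to 0.0344 for G6pdx, -1.07 to 1.10 for Elovl3 and -0.25 to 0.12 for Gpam. Without control replicates 1 and 2, where the lone control is assumed to vary like the others, the sign changed for Srebf1 (0.16), Pgd (0.19), Acly (0.0623), Acaca (0.38), Fasn (0.18), Elovl2 (-0.17), Elovl5 (-0.46), Elovl6 (0.0712), Scd1 (-0.12), Fads1 (-0.0468), Acsl5 (-0.10), Lpin1 (-0.43) and Lpin2 (-6.93e-04). No pairing by replicate number was seen: deviations of same-numbered libraries correlated at -0.02, 0.06 and -0.03, and the replicate block called 6 genes and 0 members. The labels do not say whether the samples were paired.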
